A study of Homo sapiens with 3 samples.

Results

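Tetraspanins are small membrane proteins that bind one another and other surface proteins laterally, and so gather integrins, immunoglobulin-like proteins and proteases into patches of the plasma membrane or of endosomes. Leukocytes carry a characteristic set of them, in which CD37 and CD53 are largely restricted to blood cells, and CD9, CD63 and CD81 are widely used as markers of extracellular vesicles. A subgroup called TspanC8 escorts the protease ADAM10 to the cell surface. Described here are 10 tetraspanin genes (CD9, CD37, CD53, CD63, CD81, CD82, CD151, TSPAN13, TSPAN15 and TSPAN33) of the 25247 gene symbols in the deposited tables, taken by name, with the other 23 genes of the family as company. The members were selected on their FPKM values in the control and romidepsin libraries, so the differences of these 10 genes between the groups are given as a description, with no test.

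The libraries came from OCI-AML2 R50, a culture of the established acute myeloid leukaemia cell line OCI-AML2. All 3 libraries, the control included, came from cells grown with 50 µM Ara-C (cytarabine) and 15% serum. The control group was 1 library without romidepsin, and the romidepsin group was 2 libraries taken after 18 h of treatment with this inhibitor of class I histone deacetylases. The labels name no separate cultures, so the spread between the romidepsin libraries may be technical, and with 1 control library a difference between cultures and a difference due to treatment cannot be told apart. All 8 myeloid markers examined reached 1 FPKM in each library, with a summed level of 5846 FPKM in the control against 3489 and 3441 FPKM after romidepsin. LYZ, at 4258, 2630 and 2596 FPKM, held most of that sum, and the markers went in both directions: CD33, MPO, SPI1, LYZ and ELANE were lower in both romidepsin libraries, whereas CD14, CSF1R and ITGAM were higher, ITGAM at 1.53, 20.6 and 21.3 FPKM. Of 5 epithelial markers, EPCAM, KRT18 and KRT19 were listed at 0 in every library. In RNA from a whole culture, fewer cells that carry a transcript and less of it per cell cannot be told apart.

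Values are FPKM (fragments relative to transcript length and library depth), a scale that corrects for gene length, so levels can be set side by side between genes. All 10 genes reached 1 FPKM in the control and in both romidepsin libraries. From the steps between low values, the depth was approximately 20800000 fragments in the control and 24500000 and 23400000 after romidepsin. Each gene was held in a single row that names 1 gene.

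In the control, the order of levels ran from CD63 at 256 FPKM through CD37 at 200, CD81 at 189, CD53 at 83.3, CD151 at 42.6, CD82 at 18.6, TSPAN33 at 4.82, TSPAN13 at 2.50 and TSPAN15 at 1.78 to CD9 at 1.33 FPKM. The highest of these levels was 192 times the lowest. After romidepsin the order was CD63, CD81, CD53, CD37, CD82, CD151, TSPAN13, TSPAN33, CD9 and TSPAN15 in both libraries, and the highest level was 31.9 and 34.4 times the lowest. No neighbours in that order overlapped between the romidepsin libraries, whereas the control order rests on 1 library and has no spread of its own.

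**Figure D1:**
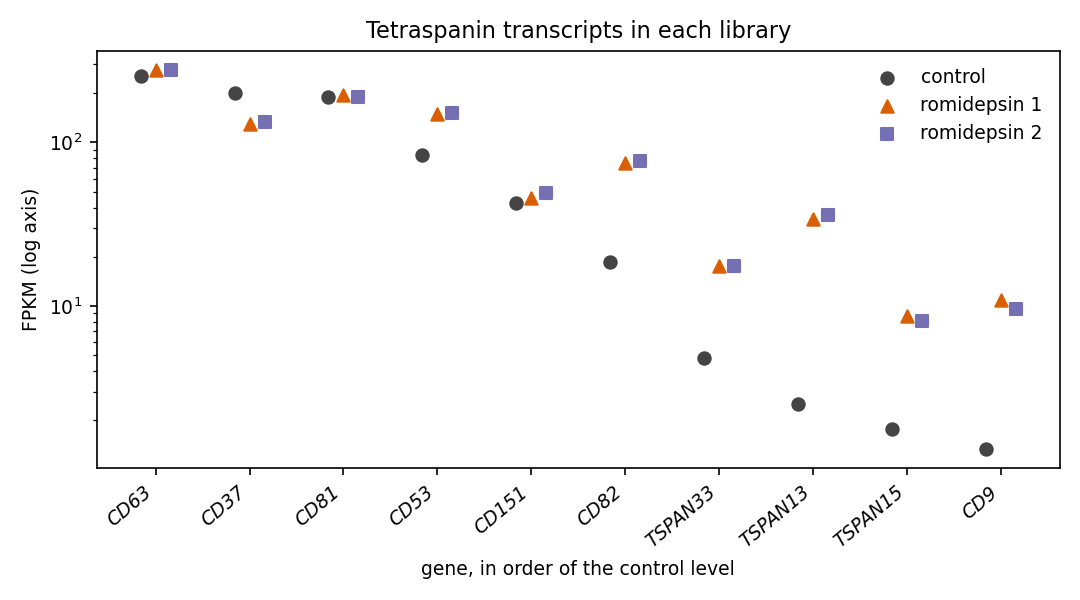
FPKM of the 10 tetraspanin genes in each library on a log axis, with genes in the order of the control level; each point is 1 library. The genes at the left, from CD63 to CD81, lie between 130 and 278 FPKM in every library, and the 4 genes at the right, from TSPAN33 to CD9, lie under 5 FPKM in the control and at 8.10 FPKM or more after romidepsin.

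On the log2(FPKM + 1) scale, 5 of the 10 genes were at least 2-fold higher than the control in both romidepsin libraries (TSPAN13, CD9, CD82, TSPAN15 and TSPAN33) and 0 were at least 2-fold lower. Over all 11708 genes that reached 1 FPKM in a library, 7.43% were at least 2-fold higher by the same rule and 3.08% at least 2-fold lower; the choice of the names fixed part of the contrast with these shares, and nothing is read from it. The median difference of the 10 genes was 1.26, against -0.05 over all genes. After scaling to an equal sum of named genes in each library (equal-sum scaling), the median of all genes moved by 0.21 to 0.16 and that of the 10 genes to 1.48, so that the distance between the medians was 1.31 as deposited and 1.32 after scaling.

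The largest difference was that of TSPAN13, a tetraspanin that had 2.50 FPKM in the control library against 34.2 and 36.0 FPKM in the romidepsin libraries. The romidepsin libraries were close to each other and far above the control, with a mean of 35.1 ± 1.23 FPKM (SD, n = 2), 14.0-fold higher. Among all 11708 genes, 13 had a larger positive difference on the log2(FPKM + 1) scale, where the difference of TSPAN13 was 3.36. TSPAN13 has 1 transcript in the GENCODE annotation, of 2093 bases, and at the estimated depth the control value rests on about 99 fragments, with a 95% exact Poisson interval of 2.04 to 3.06 FPKM. The intervals of the romidepsin values were 32.6 to 36.0 and 34.2 to 37.8 FPKM. These intervals cover counting error only. In the control TSPAN13 lay below TSPAN33 and above TSPAN15 and CD9. After romidepsin it lay above TSPAN33 as well.

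CD9, which acts in cell fusion and adhesion and is abundant on platelets, had 1.33 FPKM in the control library and 10.8 and 9.57 FPKM in the romidepsin libraries. Both romidepsin values lay above the control, and this gene had the widest gap within the pair among the 10 genes, 0.16 on the log2 scale. The mean of 10.2 ± 0.889 FPKM (SD, n = 2) was 7.66-fold higher in FPKM and 2.26 higher on the log2(FPKM + 1) scale, which understates the change of low values. The control value rests on few fragments, about 21 to 38 depending on which of the 9 annotated transcripts was counted. Among 6 megakaryocyte and platelet markers, the summed level was 9.69 FPKM in the control against 18.1 and 20.2 FPKM after romidepsin. GP9 held most of that sum, at 8.05, 10.4 and 12.1 FPKM, a mean 1.40-fold higher. GP1BA was at 0.899, 1.30 and 1.15 FPKM, higher as deposited but lower with quantile normalization, by 0.20 on the log2 scale. ITGA2B, the platelet integrin alpha chain, was at 0.501, 3.16 and 3.14 FPKM, and its partner chain ITGB3 at 0.235, 3.16 and 3.73 FPKM. PF4 and PPBP, the defining platelet chemokine genes, were listed at 0 in all 3 libraries, and the part of the other markers in the CD9 difference was not tested.

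CD82, a tetraspanin known as a suppressor of metastasis, had 18.6 FPKM in the control library and 74.7 and 76.6 FPKM in the romidepsin libraries. The pair lay well above the control with a mean of 75.7 ± 1.36 FPKM (SD, n = 2), 4.07-fold higher. In FPKM, the added 57.1 was the second largest gain among the 10 genes, after the 66.7 of CD53. CD82 lies on chromosome 11 next to another tetraspanin gene, TSPAN18, in the RefSeq order of protein-coding genes (assembly GRCh38.p14). TSPAN18 was near 0, at 0, 0.0394 and 0.0295 FPKM.

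The other pair of large differences concerned the TspanC8 genes TSPAN15 and TSPAN33, whose proteins direct ADAM10 to different substrates. TSPAN15 had 1.78 FPKM in the control library and 8.70 and 8.10 FPKM in the romidepsin libraries, and the mean of 8.40 ± 0.420 FPKM (SD, n = 2) was 4.73-fold higher. TSPAN33 had 4.82 FPKM in the control library and 17.6 and 17.4 FPKM in the romidepsin libraries, and the mean of 17.5 ± 0.144 FPKM (SD, n = 2) was 3.64-fold higher. For both genes the romidepsin libraries lay together above the control. The 95% exact Poisson interval of the control value, again for counting error only, was 1.33 to 2.30 FPKM for TSPAN15 and 4.12 to 5.62 FPKM for TSPAN33.

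CD53, a tetraspanin of leukocytes, had 83.3 FPKM in the control library and 149 and 151 FPKM in the romidepsin libraries. The mean of 150 ± 1.29 FPKM (SD, n = 2) was 1.80-fold higher, and the pair differed by a factor of 1.01. On the log2(FPKM + 1) scale the difference was 0.84, short of 2-fold as deposited and 1.08 under equal-sum scaling. CD53 had been the fourth most abundant of the 10 genes and stood above CD37 after romidepsin.

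CD37, also a leukocyte tetraspanin and prominent on mature B cells, was the 1 gene of the 10 that was lower in both romidepsin libraries. It had 200 FPKM in the control library and 130 and 133 FPKM after romidepsin, with a mean of 132 ± 2.02 FPKM (SD, n = 2), 1.52-fold lower. The romidepsin values were close together and below the control. On the log2 scale the difference was -0.60 as deposited, -0.36 under equal-sum scaling and -0.31 with quantile normalization, and relative to the median of all genes it was -0.55, -0.52 and -0.26. Among B cell markers, MS4A1 was listed at 0 in every library and CD79B was at 6.23, 6.35 and 7.13 FPKM, so CD79B was not lower in the libraries in which CD37 was lower. The part of B cell markers in the CD37 difference was not tested.

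The remaining 3 genes differed little as deposited. CD63, a tetraspanin of late endosomes, lysosomes and granules, had 256 FPKM in the control library and 277 and 278 FPKM after romidepsin, 1.08-fold higher with both libraries above the control. CD151, which binds laminin-binding integrins, had 42.6 FPKM in the control library and 45.6 and 48.7 FPKM after romidepsin, 1.11-fold higher. CD81, a tetraspanin found in most tissues, had 189 FPKM in the control library and 196 and 188 FPKM after romidepsin, and it was the 1 gene of the 10 whose control value lay within the romidepsin pair. Under equal-sum scaling the log2 differences were 0.36 for CD63, 0.38 for CD151 and 0.26 for CD81, which is 0.19, 0.22 and 0.10 above the median of all genes. In the RefSeq order of protein-coding genes CD81 lies on chromosome 11 beside TSPAN32, a tetraspanin gene of blood cells that was lower after romidepsin.

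**Figure D2:**
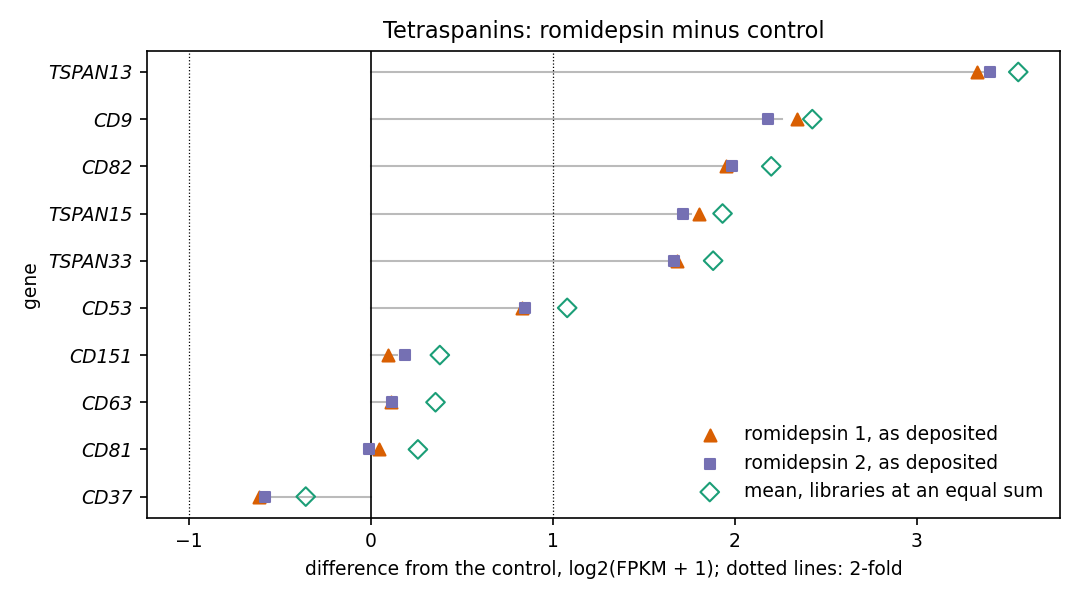
Difference of each romidepsin library from the control on the log2(FPKM + 1) scale for the 10 tetraspanin genes, with the mean under equal-sum scaling as open diamonds; dotted lines mark 2-fold. The top 5 genes lie beyond 2-fold in both libraries, CD37 lies below 0 at -0.61 and -0.58, and the scaled means lie to the right of the deposited values.

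The make-up of the tetraspanin transcripts also differed between the groups. The summed FPKM of the 33 family genes was 896 in the control and 1045 and 1048 after romidepsin, which was 0.146% of the summed FPKM of all named genes in the control and 0.201% and 0.202% after romidepsin. The 10 genes held 89.3% of the family sum in the control and 90.3% and 90.4% after romidepsin. CD63, CD81 and CD37 together held 72.0% in the control and 57.7% and 57.3% after romidepsin. The share of CD37 went from 22.3% to 12.5% and 12.7%, while that of CD53 went from 9.30% to 14.3% and 14.4%. CD82 held 2.07% of the family sum in the control and 7.15% and 7.32% after romidepsin, and TSPAN13 held 0.279%, 3.28% and 3.43%. Such shares do not change when all values of a library are multiplied by the same factor, as in equal-sum scaling. They were not computed with quantile normalization, which moves the genes of a library unequally. As the genes were chosen with these values known, these shares are a description.

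**Figure D3:**
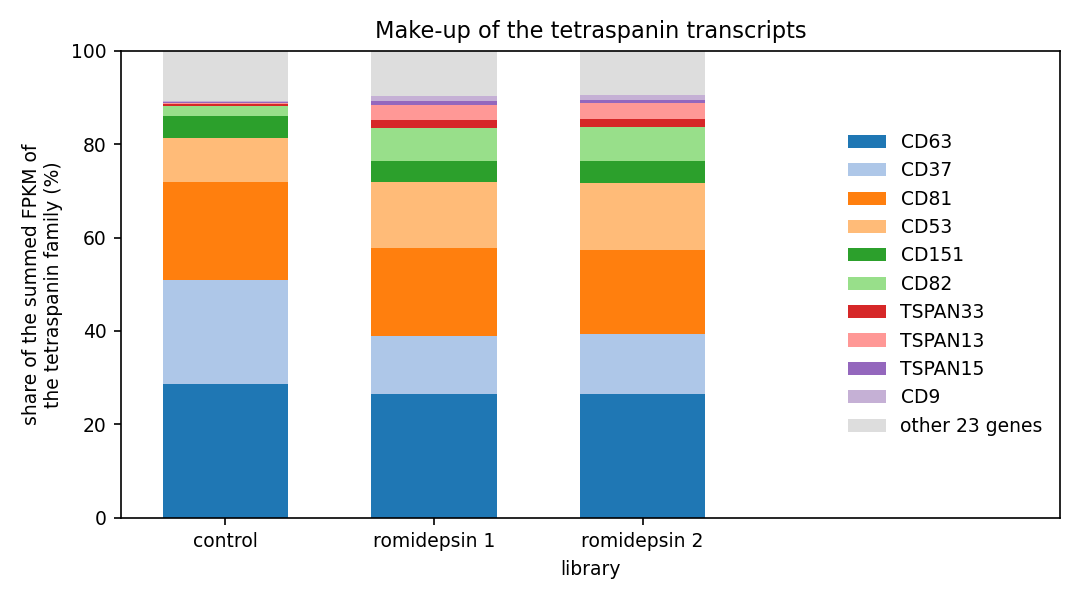
Share of each of the 10 tetraspanin genes, and of the other 23 family genes together, in the summed FPKM of the family, with 1 bar per library. CD63 keeps 28.6%, 26.5% and 26.6%, the CD37 band narrows from 22.3% to 12.5% and 12.7%, and the CD53, CD82 and TSPAN13 bands widen.

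Promoter sequence is shown for the members with large differences whose start is unambiguous in the RefSeq table (build GRCh38.p14). That table held 7 of the 10 genes, and CD82, TSPAN13, TSPAN15 and TSPAN33 each had 1 start, against 2 for CD53, 4 for CD9 and 8 for CD63. The 250 bases before each start are printed 5′ to 3′ on the gene's strand, with capitals marking the GC box letters GGGCGG or their reverse complement CCGCCC. The windows lie at chr11:44565413-44565662 for CD82, chr7:16753505-16753754 for TSPAN13, chr10:69451215-69451464 for TSPAN15 and chr7:129144457-129144706 for TSPAN33, all on the plus strand.
CD82: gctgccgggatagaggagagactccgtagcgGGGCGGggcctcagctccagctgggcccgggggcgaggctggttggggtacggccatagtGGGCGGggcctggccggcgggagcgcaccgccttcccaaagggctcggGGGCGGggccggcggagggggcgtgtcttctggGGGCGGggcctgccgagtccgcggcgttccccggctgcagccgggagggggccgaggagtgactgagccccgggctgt
TSPAN13: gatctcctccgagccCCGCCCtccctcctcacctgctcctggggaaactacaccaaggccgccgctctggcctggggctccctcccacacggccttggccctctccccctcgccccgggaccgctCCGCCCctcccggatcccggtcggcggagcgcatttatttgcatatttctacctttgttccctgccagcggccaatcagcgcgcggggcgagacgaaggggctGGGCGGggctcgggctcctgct
TSPAN15: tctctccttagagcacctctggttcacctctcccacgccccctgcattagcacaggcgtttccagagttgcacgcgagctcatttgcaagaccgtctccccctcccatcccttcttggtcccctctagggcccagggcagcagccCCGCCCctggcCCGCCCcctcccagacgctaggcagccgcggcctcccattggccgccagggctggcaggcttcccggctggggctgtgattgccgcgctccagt
TSPAN33: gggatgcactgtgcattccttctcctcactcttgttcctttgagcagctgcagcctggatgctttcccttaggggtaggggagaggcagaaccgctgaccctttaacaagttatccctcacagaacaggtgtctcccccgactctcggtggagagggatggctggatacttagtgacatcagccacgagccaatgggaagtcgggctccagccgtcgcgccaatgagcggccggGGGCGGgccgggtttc
The CD82 window held 4 of these GC boxes and 26 CpG dinucleotides, that of TSPAN13 held 3 and 22, that of TSPAN15 held 2 and 14, and that of TSPAN33 held 1 and 12. Over all 35114 windows in the table the median was 11 CpG, and 42.6% held at least 1 GC box, so a GC box is common among promoters. The letters CCAAT, on either strand and in about 32% of all windows, occurred once in TSPAN13 and TSPAN15 and at 2 places in TSPAN33. The 2 windows of CD53 differed from these, with 3 and 2 CpG and a GC content of 45.2% and 44.0%, against 77.2% for CD82. The second CD53 window, 250 bases before the start that lies farther downstream, held the letters GAGGAAG at 2 places on either strand. This motif was in 11.3% of all windows and in 4 of the 18 windows of the 7 genes, the others being CD63 windows. The CD63 windows ranged from 4 to 30 CpG and from 0 to 3 GC boxes. Those of CD9 ranged from 1 to 29 CpG and from 0 to 6 GC boxes. These matches describe letters only, and the deposited values do not tell which start was used in these cells.

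Of the other 23 tetraspanin genes, 7 were listed at 0 in every library (TSPAN5, TSPAN6, TSPAN8, TSPAN12, TSPAN19, UPK1A and UPK1B) and 7 stayed under 1 FPKM throughout. Among the latter, ROM1 was the highest in the control at 0.691 FPKM, with 0.421 and 0.439 FPKM after romidepsin. TSPAN1, TSPAN11 and PRPH2 were above 0 in a single library each, at 0.0626, 0.0147 and 0.0283 FPKM, and TSPAN16 was at 0.124, 0.102 and 0 FPKM. The 9 others were tested with limma over all 11708 genes, of which 76.5% were called, 34.7% higher and 41.8% lower. In this group 4 rose and 3 fell, a share of calls near that of all genes, with a median log2 difference of 0.07. These genes are what the selection of the members left of the family, which shaped this share and median, so nothing is read from them. Under equal-sum scaling 5 were called higher and 1 lower.

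TSPAN2, a tetraspanin known from oligodendrocytes, rose from 2.17 FPKM to 5.65 and 5.31 FPKM (2.52-fold, limma adjusted p = 2.17e-05). TSPAN4, a tetraspanin of migrasomes, rose from 11.5 FPKM to 14.9 and 16.9 FPKM (limma adjusted p = 0.00127). TSPAN7 had 0.0672 FPKM in the control library and 3.34 and 3.09 FPKM after romidepsin, and TSPAN9 was at 0.376, 1.10 and 1.10 FPKM. Both were under 1 FPKM in the control and entered the test only through the romidepsin libraries, which fixed their direction, and TSPAN9 was not called with quantile normalization (limma adjusted p = 0.960).

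TSPAN32 fell from 3.22 FPKM to 0.960 and 1.36 FPKM, by 0.97 on the log2 scale (limma adjusted p = 0.000457), and by 0.81 under equal-sum scaling. Its neighbour CD81 had 189, 196 and 188 FPKM in the same libraries. TSPAN3 fell from 29.6 to 27.6 and 26.8 FPKM (limma adjusted p = 0.0484) and TSPAN17 from 8.49 to 7.58 and 7.37 FPKM (limma adjusted p = 0.0480), but under equal-sum scaling both were higher than the control, by 0.12 and 0.05, and neither was called. With quantile normalization TSPAN17 was called lower (limma adjusted p = 0.0334) and TSPAN3 was not called (limma adjusted p = 0.952). TSPAN31 had 9.77 FPKM in the control library and 10.5 and 10.2 FPKM after romidepsin (limma adjusted p = 0.281).

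The other TspanC8 genes give the company of TSPAN15 and TSPAN33. TSPAN14 was its most abundant gene in the control at 30.2 FPKM, with 28.5 and 27.2 FPKM after romidepsin (limma adjusted p = 0.0615). TSPAN17 is described above, TSPAN10 was at 0.0946, 0.427 and 0.298 FPKM, and TSPAN5 was listed at 0. In the control TSPAN15 and TSPAN33 thus lay below both TSPAN14 and TSPAN17, and after romidepsin they lay above TSPAN17 and below TSPAN14. ADAM10, the protease these proteins bind, rose from 41.9 to 50.5 and 52.4 FPKM, by 0.29 on the log2 scale (limma adjusted p = 0.000512).

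Of 9 ADAM10 substrates, 7 were tested, of which 6 rose and 1 fell, with a median log2 difference of 0.80, where 76.5% of all genes were called and 34.7% were higher. This list and those that follow were chosen with earlier results of these data known. Their counts and medians are therefore a description, and nothing is read from the contrast with all genes. FCER2, the low-affinity receptor for immunoglobulin E, rose from 1.40 to 9.51 and 9.41 FPKM (limma adjusted p = 4.82e-07). AXL, a receptor tyrosine kinase, rose from 1.91 to 9.76 and 8.75 FPKM (limma adjusted p = 1.64e-06). The receptor gene NOTCH2 rose from 14.7 to 26.5 and 26.1 FPKM and NOTCH1 from 5.93 to 10.5 and 10.8 FPKM. CXCL16, a membrane-bound chemokine, had 0.761 FPKM in the control and a mean of 2.64 ± 0.511 FPKM (SD, n = 2) after romidepsin. Counted among the 6, CXCL16 entered the test only through the romidepsin libraries, which fixed its direction. IL6R, the interleukin 6 receptor, fell from 73.4 to 59.1 and 60.0 FPKM, but was not called under equal-sum scaling (limma adjusted p = 0.182) or with quantile normalization (limma adjusted p = 0.0968).

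Among 21 membrane partners of tetraspanins, 17 were tested, of which 14 rose and 2 fell, with a median log2 difference of 0.43, beside 34.7% higher and 41.8% lower over all genes. IGSF8, an immunoglobulin-like protein that binds CD9 and CD81 directly, rose from 2.96 to 6.99 and 6.62 FPKM (2.30-fold, limma adjusted p = 1.78e-05). HBEGF, a growth factor precursor that associates with CD9, rose from 1.73 to 10.7 and 11.8 FPKM (6.52-fold, limma adjusted p = 6.85e-07). Both genes were higher in each romidepsin library than in the control, as CD9 was, whereas the control value of CD81 lay within the romidepsin pair.

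The integrin chains in this list went in both directions. ITGB1, the common beta chain of laminin and fibronectin receptors, rose from 25.7 to 45.3 and 47.0 FPKM (1.79-fold, limma adjusted p = 3.11e-06), and ITGB2, the beta chain of the leukocyte integrins, rose from 74.6 to 90.6 and 89.2 FPKM (limma adjusted p = 0.000343). ITGA6, a laminin receptor chain bound by CD151, was at 0.113, 2.08 and 1.98 FPKM, and the other classical CD151 partner, ITGA3, was listed at 0. ITGA4, which pairs with ITGB1, fell from 47.9 to 36.1 and 36.0 FPKM, by 0.40 on the log2 scale (limma adjusted p = 6.69e-05), and by 0.17 under equal-sum scaling. ITGAL, which pairs with ITGB2, fell from 110 to 90.8 and 89.1 FPKM, but was not called under equal-sum scaling (limma adjusted p = 0.260) or with quantile normalization (limma adjusted p = 0.588). CLEC7A, a beta-glucan receptor that CD37 binds, was at 0.0244, 2.08 and 3.18 FPKM. In this list 3 tested genes, ITGA6 and CLEC7A among them, were under 1 FPKM in the control. They entered the test through the romidepsin libraries, which fixed their direction, and they are counted among the 14 that rose.

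Genes of vesicle formation and endosomal sorting were mixed: 7 of 15 tested rose and 2 fell (34.7% and 41.8% over all genes), with a median log2 difference of 0.06, and 12 were called higher and 1 lower under equal-sum scaling. SDCBP, which encodes syntenin, the adaptor that binds the tail of CD63, rose from 106 to 201 and 210 FPKM (1.95-fold, limma adjusted p = 1.00e-06). FLOT1, a membrane raft scaffold, rose from 50.3 to 115 and 114 FPKM (2.27-fold, limma adjusted p = 3.50e-07), while its partner FLOT2 fell from 75.8 to 57.9 and 56.3 FPKM (limma adjusted p = 5.65e-05). STAM and ARF6 rose by 0.55 and 0.37 in log2 units, and RAB27B, counted among the 7, was at 0.180, 1.59 and 1.62 FPKM and entered the test only through the romidepsin libraries, which fixed its direction. HGS, an early sorting factor, fell by 0.24. It was also called lower with quantile normalization (limma adjusted p = 0.0458), but was not called under equal-sum scaling (limma adjusted p = 0.815).

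Of 5 membrane genes of late endosomes and lysosomes, the compartment of CD63, 4 rose and LAMP1 fell, with a median log2 difference of 0.32, again beside 76.5% called and 34.7% higher over all genes. The cholesterol transporter NPC1 rose from 8.20 to 17.2 and 16.4 FPKM and SCARB2 from 9.39 to 18.7 and 18.3 FPKM, each with a larger log2 difference (0.95 and 0.91) than the 0.12 of CD63. LAMP2 rose by 0.32 and AP3B1 by 0.28. LAMP1, at 149, 126 and 126 FPKM, was called lower by 0.24 as deposited, but its difference was 0.00 under equal-sum scaling (limma adjusted p = 0.936).

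**Figure D4:**
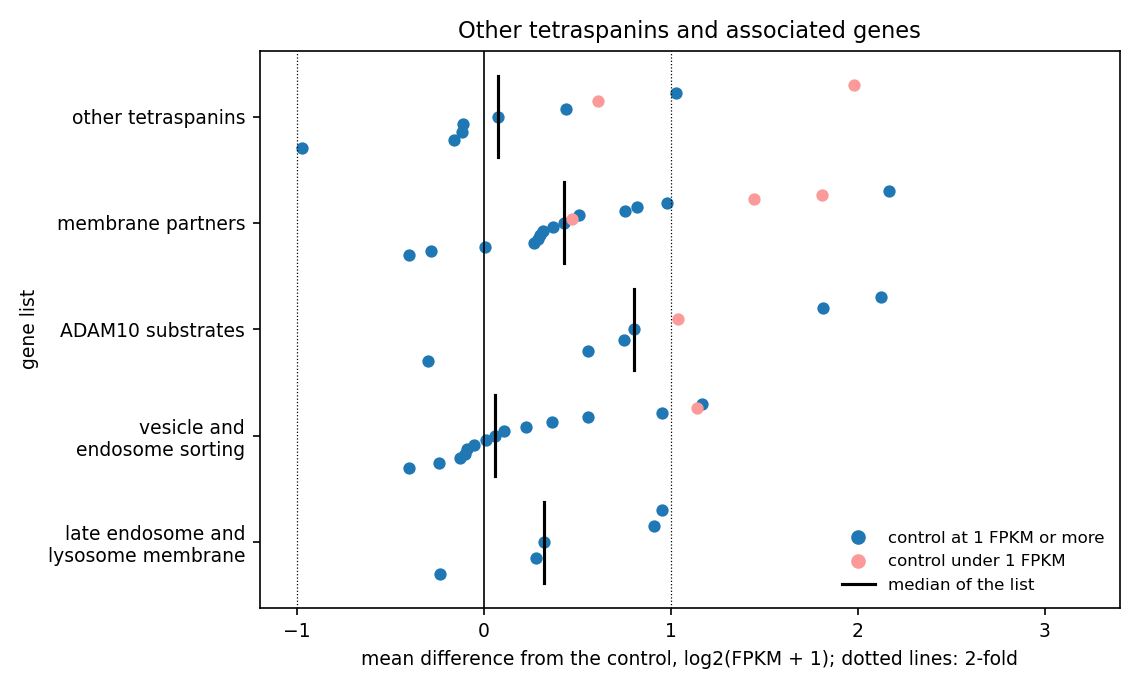
Mean difference from the control on the log2(FPKM + 1) scale for the tested genes of 5 lists, with 1 point per gene and the TspanC8 genes TSPAN14 and TSPAN17 among the other tetraspanins, the median of each list as a black line and genes under 1 FPKM in the control in pink. The medians of these lists run from 0.06 for vesicle and endosome sorting to 0.80 for ADAM10 substrates, and TSPAN32 is the point at -0.97 among the other tetraspanins.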

How the data were processed

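RNA sequencing of 3 OCI-AML2 R50 libraries (1 control, 2 romidepsin) was used. The authors deposited FPKM values per gene, per the file headers. The submitters' processing notes name hg19 as the build and Cuffdiff, Cufflinks and TopHat as tools, with no version, setting or annotation stated. Rows of a symbol were summed; 1770 rows without a gene name (21.1% to 22.3% of the FPKM sum) and 27 named by a number were left out. The 11708 symbols with at least 1 FPKM in a library were compared on log2(FPKM + 1) with limma 3.58.1 in R 4.3.3 (trend, Benjamini-Hochberg over all genes, threshold 0.05), with 1 residual degree of freedom; the single control library was taken to have the same variance as the treated pair. The script was tested on simulated data, which checks the code and not the design of 1 control library. A second rule was 2-fold in both romidepsin libraries. Depth was estimated from steps between low FPKM values of genes with 1 transcript in GENCODE, less 200 bases per transcript. The members, lists and tests were chosen with earlier results of these data known. Named genes were the members, the other tetraspanins above 0, up to 5 rises and 5 falls per list, and ADAM10, IGSF8, ITGB1, ITGB2 and ITGA4. The alternatives were 2 pseudocounts, 2 filters, 2 scalings, single-row symbols, and each romidepsin library left out. Python 3.11.15, numpy 2.4.6, pandas 2.3.3, scipy 1.17.1 and matplotlib 3.10.9 were used.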

Additional observations from a re-analysis of the deposited data

How the results depend on the processing

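All 10 tetraspanin genes kept the sign of their difference from the control under the alternatives run, except CD81, whose difference of 0.02 was -0.00687 without romidepsin replicate 1 and 0.047 without replicate 2. The count of genes at least 2-fold higher was 5, or 6 under equal-sum scaling and with quantile normalization. The median difference of 1.26 was 1.35 and 1.30 with pseudocounts of 0.1 and 0.5, 1.48 under equal-sum scaling and 1.32 with quantile normalization, and lay at 1.26 with either romidepsin library left out. No paired analysis was possible because there was 1 control library for 2 romidepsin libraries.

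Over all genes, 4057 were called higher and 4896 lower, or 5738 and 3061 under equal-sum scaling. This scaling moved the share of higher among the calls from 45.3% to 65.2%. With a mean of at least 5 FPKM, 8625 genes were tested, of which 2711 were higher and 4234 lower. The share of higher among the calls was then 39.0%. At least 2-fold higher were 870 genes and lower 361, against 1308 and 543 with a pseudocount of 0.1, 463 higher with a mean of at least 5 FPKM and 172 lower under equal-sum scaling. With 1 romidepsin library left out there were 951 to 957 higher and 424 to 429 lower, by the remaining library alone, with no test.

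Among the other tetraspanins, the limma count higher was 1 with a mean of at least 5 FPKM and the count lower 1 under equal-sum scaling. Those at least 2-fold higher (1 as deposited) were 3 and 2 with pseudocounts of 0.1 and 0.5, 0 with a mean of at least 5 FPKM, 2 under equal-sum scaling and 1 to 2 with a romidepsin library left out. Those at least 2-fold lower (0 as deposited) were 1 with a pseudocount of 0.1, 1 with quantile normalization and 0 to 1 with a romidepsin library left out. The limma count lower in the lists was 0 with no filter and under equal-sum scaling for TspanC8, 1 for membrane partners and 0 for ADAM10 substrates and for late endosomes under equal-sum scaling and with quantile normalization, and for vesicle sorting 12 were higher and 1 lower under equal-sum scaling. The cause of these changes was not tested. The spread behind each limma call comes from 2 libraries, and the depth estimate is approximate.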
